A study of Caenorhabditis elegans with 12 samples.

Results

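The H3K9me2 peaks described here lie on both arms of Chromosome V of *C. elegans*. They come from a peak list for each of 2 ChIP-seq experiments on whole, mixed-stage animals. The *wdr-5* experiment compared *wdr-5 (ok1417)* mutants with N2 wild type and comprised 6 groups, an early-, a mid- and a late-gen population of each strain. The *jhdm-1* experiment compared *jhdm-1 (ok2364)* mutants with N2 wild type and comprised 4 groups, an early- and a mid-gen population of each strain. By the study's methods each group had 3 replicates in the *wdr-5* experiment and 2 in that of *jhdm-1*, and by their labels the early- and mid-gen wild types of the *jhdm-1* experiment each reuse a library of the *wdr-5* experiment, 2 libraries in all. Generations were counted from the founding of each population, which in wild type was from thawed animals. In the study's mutants it was from the first homozygotes after heterozygous upkeep, from starved animals or from thawed animals. Whole animals mix all tissues and stages, and both mutations are on Chromosome III, not on Chromosome V. A peak is a region where the peak caller found more antibody pull-down reads than its background model gives. Each list is the union of the peaks over all groups of its experiment, wild type included, and gives positions only. A list therefore has no replicate error, its depth is unknown, and mutant and wild-type peaks cannot be told apart in it. All comparisons between lists, between arms or between chromosomes are accordingly descriptions, without a test.

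Peaks were assigned by their midpoint on the WS220/ce10 genome. The left arm holds midpoints below 5.9 Mb, and the right arm holds midpoints from 16.55 Mb up to 20.92 Mb, where the last peak of either list ends. By this rule 2900 peaks of the 16340 in both lists were members, 2067 of the 10457 in the *wdr-5* experiment and 833 of the 5883 in the *jhdm-1* experiment. These were 85.5% of the *wdr-5* experiment's peaks on Chromosome V and 80.0% of the *jhdm-1* experiment's. The gene table used here is of another genome build, so genes, exons, introns and UTRs under the peaks were not looked up, and no DNA sequence was read.

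H3K9me2, the dimethylation of lysine 9 on histone H3, is a mark of repressed chromatin that in *C. elegans* is deposited mainly by the methyltransferase MET-2. WDR-5 is a subunit of the COMPASS complex, which methylates H3K4, a mark of transcribed chromatin, and JHDM-1 is a putative H3K9 demethylase. The chromosomes of *C. elegans* have no single centromere. Their autosomes are divided instead into a gene-dense centre with little meiotic recombination and a pair of arms that recombine more, hold more repeats and transposon remnants, and carry most of the H3K9 methylation. The arms of Chromosome V are also known for large families of chemoreceptor genes.

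The right arm held most of the members in both lists, and the lists parted there. The *wdr-5* experiment had 513 peaks on the left arm and 1554 on the right arm. The *jhdm-1* experiment had 312 on the left arm and 521 on the right arm. Since the left arm spans 5.9 Mb and the right arm 4.37 Mb, this made 86.9 and 356 peaks per Mb in the *wdr-5* experiment, a left to right ratio of 0.245. The *jhdm-1* list had 52.9 peaks per Mb on the left arm and 119 on the right arm, which is a ratio of 0.444. The right arm was thus the denser in either list, with the larger difference between the arms in the *wdr-5* experiment.

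By covered length, the lists were level on the left arm and far apart on the right arm. The peaks covered 5.53% of the left arm in the *wdr-5* list and 5.56% in the *jhdm-1* list, although there were 1.64 times as many *wdr-5* peaks there. They covered 26.1% of the right arm in the *wdr-5* list and 13.4% in the *jhdm-1* list. The *wdr-5* list therefore held 2.98 times as many peaks and 1.95 times as many covered bases on the right arm, and 0.995 times as many covered bases on the left arm. The experiments differ in the number of groups and libraries, with late-gen populations only in the *wdr-5* experiment, and the depth of the libraries is unknown. A peak also had to be found in 2 replicates, out of 3 in the *wdr-5* experiment and out of 2 in that of *jhdm-1*. By the study's methods, 2 of the 3 *wdr-5* replicates were sequenced on the HiSeq platform and the last on NextSeq, with longer reads. The 2 *jhdm-1* replicates were split between these platforms, so a *jhdm-1* peak had to be found on both. The part of these points in the difference was not tested.

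**Figure D1:**
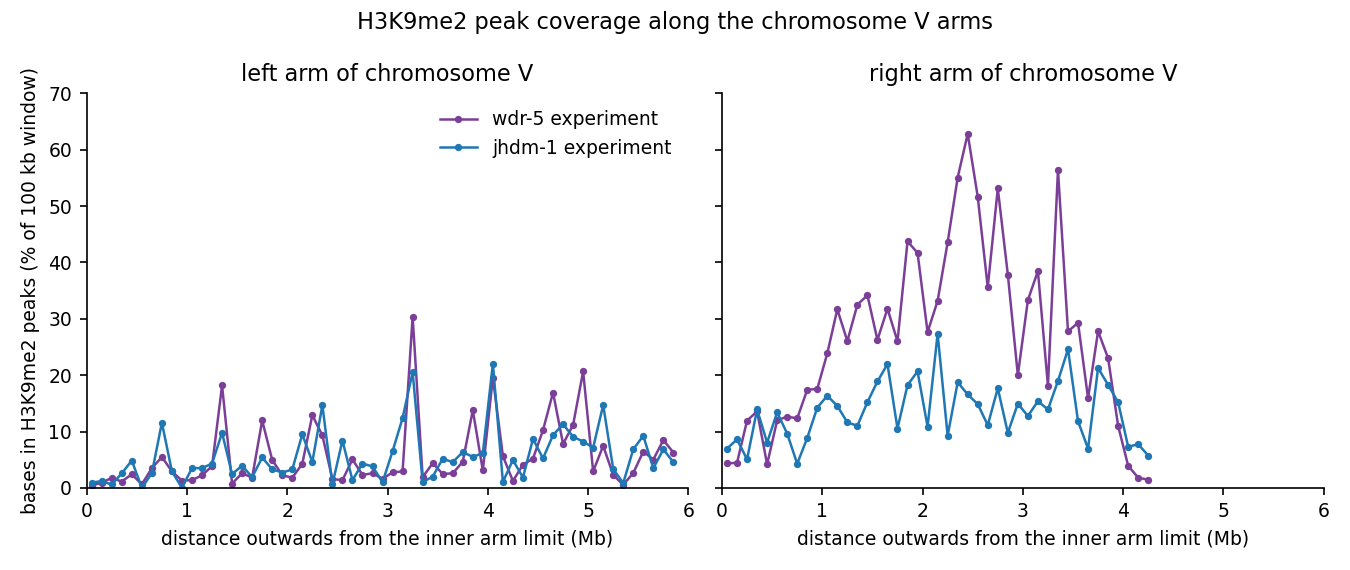
Bases in H3K9me2 peaks, as a percent of each 100 kb window (y axis), against the distance outwards from the inner limit of the left and the right arm of Chromosome V (x axis, Mb); each point is 1 window and the lines mark the *wdr-5* (purple) and *jhdm-1* (blue) experiments. On the left arm both lists stay at or below 30.4%, and on the right arm the *wdr-5* list reaches 62.9%, against 27.4% in the *jhdm-1* list.

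Along the right arm, the *wdr-5* peaks formed a broad hump. In 500 kb windows counted inwards from the end of the chromosome, the covered share in the *wdr-5* experiment was 5.57% in the outermost window and 25.9% in the next, followed by 32.8%, 48.5%, 41.4%, 31.0%, 26.1% and 11.7%. The *jhdm-1* experiment gave 8.99%, 16.2%, 14.3%, 14.3%, 19.1%, 15.5%, 13.6% and 9.81% in the same windows. Both lists were thus thinnest at the very end and towards the arm's inner limit. The *wdr-5* share was above the *jhdm-1* share in 7 of the 8 windows, by up to 3.40 times in the window from 18920744 to 19420743. In the outermost window it was the lower, at 0.619 times the *jhdm-1* share. The inner 371 kb of the arm lie outside these windows and were covered to 6.58% in the *wdr-5* list and 6.73% in the *jhdm-1* list. In windows of 100 kb the *wdr-5* share was the lower in 9 of 43, all of them near the inner limit or the end of the arm.

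The hump could be followed at finer scale. A run of 18 neighbouring 100 kb windows, from 17650001 to 19450000, had more than 25% of each window in *wdr-5* peaks, a threshold chosen after the values were seen. This run held 830 *wdr-5* peaks and 249 *jhdm-1* peaks, which were 53.4% and 47.8% of the right-arm members on 41.2% of the arm. Within it 38.6% of the bases lay in *wdr-5* peaks and 15.5% in *jhdm-1* peaks. The run was picked by its *wdr-5* cover, so that choice itself favours a high *wdr-5* share and an excess over *jhdm-1*. The values describe the run and are no separate support for the hump. The highest window of the *wdr-5* list, from 18950001 to 19050000, was covered to 62.9%, against 16.6% in the *jhdm-1* list. The highest window of the *jhdm-1* list, from 18650001 to 18750000, was covered to 33.2% in the *wdr-5* list and to 27.4% in the *jhdm-1* list.

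On the left arm the 2 profiles ran close together at a low level in windows of 500 kb. Over its outer 11 windows of 500 kb, the covered share had a median of 5.77% in the *wdr-5* experiment, with a range from 2.57% to 10.3%. Among the *jhdm-1* peaks the median was 6.19%, with a range from 3.38% to 8.73%. The *wdr-5* share was the higher in 4 of the 11 windows, and the ratio of the lists stayed between 0.681 and 1.30. In both lists the window from 1000001 to 1500000 was the highest, at 10.3% in the *wdr-5* list and 8.73% in the *jhdm-1* list. The lowest of the 11 in the *wdr-5* list was the window from 3000001 to 3500000, and the lowest in the *jhdm-1* list was that from 4000001 to 4500000. The inner 400 kb of the arm, which these windows leave out, were thinner still, at 1.05% in the *wdr-5* list and 1.32% in the *jhdm-1* list. Single 100 kb windows rose above this level, such as that from 2600001 to 2700000, with 30.4% in *wdr-5* peaks and 20.5% in *jhdm-1* peaks. At this scale the lists could also part, in either direction. The window from 2700001 to 2800000 had 2.92% in *wdr-5* and 12.4% in *jhdm-1* peaks. That from 900001 to 1000000 had 20.7% and 8.22%. Spearman's rho between the lists was 0.68 over the 59 windows of 100 kb on the left arm and 0.62 over the 43 on the right arm. Neighbouring windows are not independent, and the lists have wild-type libraries in common.

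Against the centre of Chromosome V, both arms were richer in peaks in both lists. The *wdr-5* experiment had 33.0 peaks per Mb and 1.72% of the bases covered in the centre, and the *jhdm-1* experiment had 19.5 peaks per Mb and 2.81%. The left arm exceeded the centre in covered share by 3.22 times in the *wdr-5* experiment and by 1.98 times in the *jhdm-1* experiment. For the right arm these ratios were 15.2 and 4.76. By peaks per Mb, the left arm exceeded the centre by 2.64 times in the *wdr-5* experiment and by 2.71 times in the *jhdm-1* experiment, and the right arm did so by 10.8 and 6.10 times.

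The arms of Chromosomes II, III and IV served as a further comparison, with limits of 4.9 and 12 Mb, 3.7 and 10 Mb, and 3.9 and 13 Mb. These are approximate recombination limits chosen for this comparison, and not taken from the study. The arms of Chromosome I were not included. Of the 8 arms, the right arm of Chromosome V had the most *wdr-5* peaks per Mb, followed by the left arm of Chromosome III with 275. By covered share the order of these 2 arms was the opposite, with 26.1% on the right arm of Chromosome V and 32.2% on the left arm of Chromosome III. The left arm of Chromosome V had the lowest covered share of the 8 arms in both lists, next to the right arm of Chromosome IV with 6.77% in the *wdr-5* list and 6.05% in the *jhdm-1* list. With equal parts of Chromosomes II, III and IV as arms and Chromosome V unchanged, it was the second lowest in the *jhdm-1* list, above the right arm of Chromosome IV with 5.38%. With equal parts on Chromosome V as well, its *jhdm-1* share was 5.07%, below that 5.38%. An imbalance between arms was not restricted to Chromosome V. On Chromosome IV the left arm was the fuller, with left to right ratios of covered share of 3.24 in the *wdr-5* list and 2.33 in the *jhdm-1* list. On Chromosome V the same ratios were 0.212 and 0.416, on Chromosome II they were 0.971 and 0.907, and on Chromosome III 1.98 and 1.14. On Chromosomes III and IV, as on Chromosome V, the arms were thus further apart in the *wdr-5* list. Across the 8 arms, those where the *wdr-5* list covered much more than the *jhdm-1* list were the left arm of Chromosome III (2.35 times), the right arm of Chromosome V (1.95 times) and the left arm of Chromosome IV (1.56 times).

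**Figure D2:**
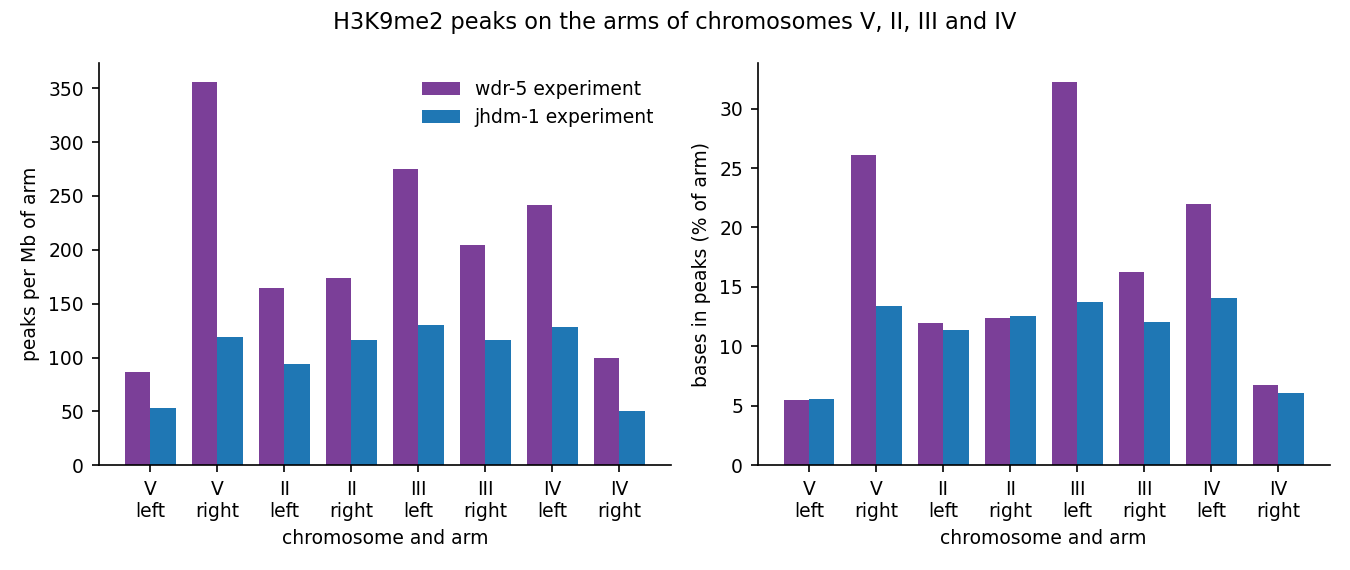
Peaks per Mb (left) and bases in peaks as a percent of the arm (right) on the left and right arms of Chromosomes V, II, III and IV, in the *wdr-5* (purple) and *jhdm-1* (blue) experiments; each bar is 1 deposited list on 1 arm, without replicates. The right arm of Chromosome V has 356 and 119 peaks per Mb, against 86.9 and 52.9 on its left arm.

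Median peak length changed little between the arms and much between the lists. In the *wdr-5* experiment the median peak was 436 bp long on the left arm (quartiles 269 and 798 bp) and 457 bp on the right arm (quartiles 267 and 801.5 bp). The median *jhdm-1* peak was 840 bp long on the left arm (quartiles 525 and 1247.5 bp) and 780 bp on the right arm (quartiles 422 and 1458 bp). The *wdr-5* median was thus 0.519 times the *jhdm-1* median on the left arm and 0.586 times on the right arm. Peaks under 200 bp made up 9.75% of the *wdr-5* list on the left arm and 12.9% on the right arm, and the *jhdm-1* list had none on either arm.

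The right arm differed from the left in its long peaks. Peaks of 2 kb or more were 2.92% of the *wdr-5* peaks on the left arm and 6.63% on the right arm, where they held 30.4% of all bases in *wdr-5* peaks. Of the *jhdm-1* peaks they were 9.29% on the left arm and 14.2% on the right arm. Of the 103 such *wdr-5* peaks on the right arm, 33 lay in the single window from 18920744 to 19420743, the one with the highest covered share. Peaks of 5 kb or more were few. The *wdr-5* experiment had 1 on the left arm and 14 on the right arm, and the *jhdm-1* experiment had 3 and 5.

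Between the arms of the *wdr-5* experiment, spacing differed more than length. The gap from a *wdr-5* peak to the next had a median of 3716 bp on the left arm and 734 bp on the right arm, where peaks averaged 733 bp in length. Between *jhdm-1* peaks the median gap was 7075 bp on the left arm and 4501.5 bp on the right arm. Gaps under 1 kb made up 24.4% of the *wdr-5* gaps on the left arm and 58.1% on the right arm. They made up 5.14% and 8.46% of the *jhdm-1* gaps on the same arms, so close neighbours were few in that list even where peaks were dense. The shortest *jhdm-1* peak was 200 bp long on both arms. In the *wdr-5* list the shortest were 46 bp on the left arm and 47 bp on the right arm. The lists thus differed in their shortest length, and whether the peaks of replicates were joined alike in both is not known. Peak counts, lengths, gaps and numbers of peaks met, where compared between the lists, carry this limit. So do covered shares, bases found in a single list, shares of overlapping peaks, and the lengths and containment of paired peaks.

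**Figure D3:**
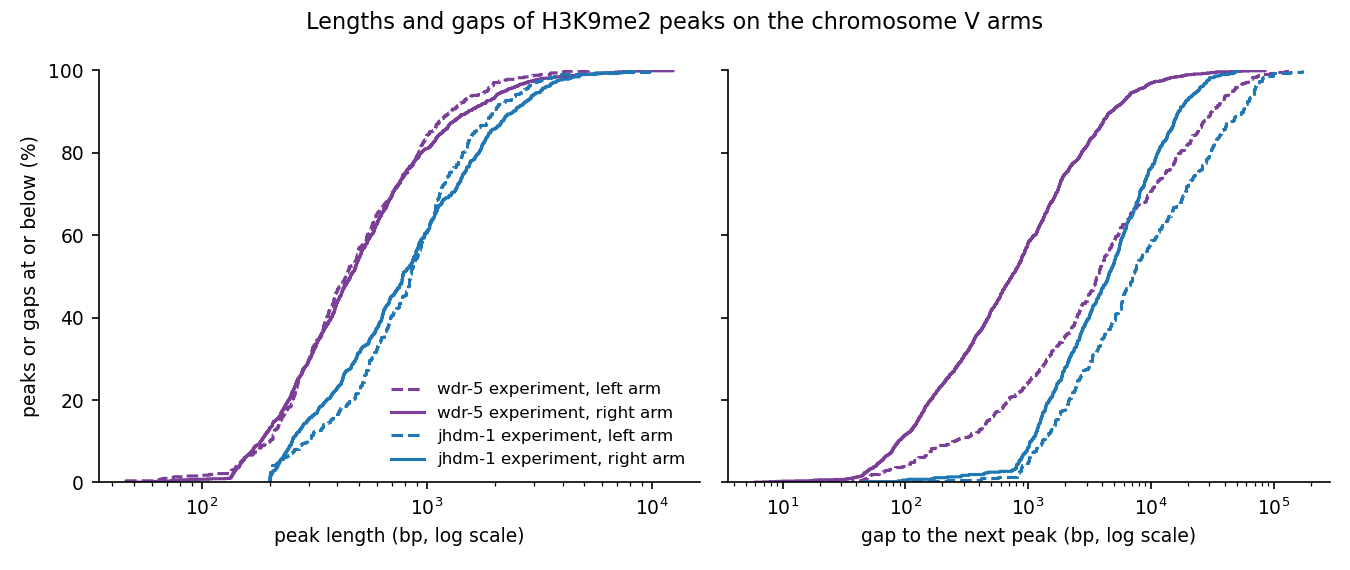
Share of peaks at or below a given length (left) and of gaps at or below a given size (right), both on a logarithmic axis in bp, for the left (dashed) and right (solid) arms in the *wdr-5* (purple) and *jhdm-1* (blue) experiments. In the *wdr-5* experiment the length medians are 436 bp on the left arm and 457 bp on the right arm and the gap medians 3716 and 734 bp, and in the *jhdm-1* experiment the length quartiles are 525 and 1247.5 bp on the left arm and 422 and 1458 bp on the right arm.

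When peaks of a list within 1 kb of each other were joined into domains, the right arm of the *wdr-5* experiment changed most. Its 1554 peaks formed 652 domains, of which 316 held a single peak and the fullest held 20. Of these domains 22 were 10 kb or longer, and they held 226 peaks, or 14.5% of the right-arm list. No domain of this size was found on the left arm of the *wdr-5* experiment or on either arm in the *jhdm-1* experiment. Of the *wdr-5* list, 513 peaks on the left arm gave 388 domains, and the *jhdm-1* experiment gave 296 domains from 312 peaks on the left arm and 477 from 521 on the right arm. Joined in this way, the median *wdr-5* domain on the right arm was 1051.5 bp long, above the 860 bp of the *jhdm-1* domains, whereas the single peaks had the opposite order.

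The left arm had a longest *wdr-5* domain of 9151 bp, from 2663262 to 2672412, which held 5 peaks and met 3 *jhdm-1* peaks. That of the right arm ran for 29994 bp, from 19007602 to 19037595. It consisted of 8 peaks that filled 96.8% of it, among them the longest *wdr-5* peak of Chromosome V. The *jhdm-1* list had 8 peaks in this stretch, which covered 6586 bp. The longest domains of the *jhdm-1* experiment were a single peak of 9649 bp on the left arm and a pair of peaks over 9343 bp on the right arm, from 20299307 to 20308649, of which 8616 bp also lay in *wdr-5* peaks.

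To ask whether both experiments marked the same places, peaks that overlapped a peak of the other list by at least 1 bp were counted as shared. In the *wdr-5* experiment 199 peaks were shared on the left arm, which was 38.8% (95% Wilson interval 34.7% to 43.1%). The right arm had 571 shared peaks, or 36.7% (34.4% to 39.2%). Over all chromosomes the share of this list was 41.0%. Of the *jhdm-1* peaks 163 were shared on the left arm, which was 52.2% (46.7% to 57.7%), and 398 on the right arm, or 76.4% (72.6% to 79.8%), beside 55.4% over all chromosomes. The *jhdm-1* peaks on the right arm were thus shared more often than those on the left arm, with intervals that do not meet, and the *wdr-5* peaks were shared about equally on both arms. The intervals cover counting error only, and neighbouring peaks are not independent. For the *jhdm-1* peaks over all chromosomes, the study reports a larger shared part than was counted here. Its methods do not state how a shared peak was defined, and the reason for the difference was not tested.

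The share has to be read beside how much of the arm the other list fills. Of the bases in *jhdm-1* peaks on the left arm, 26.5% also lay in *wdr-5* peaks, which is 4.79 times the 5.53% of the arm that *wdr-5* peaks covered. Of those on the right arm, 57.8% lay in *wdr-5* peaks, which is 2.22 times the 26.1% covered there. The ratio cannot exceed the inverse of the cover, so it has a lower ceiling on the fuller arm, and the arms were not ranked by it. Of the bases in *wdr-5* peaks, 26.6% on the left arm and 29.6% on the right arm lay in *jhdm-1* peaks. The *jhdm-1* peaks covered 5.56% of the left arm and 13.4% of the right arm, so the near-equal *wdr-5* shares stand beside unequal cover. In the outermost 500 kb of the right arm, where the *wdr-5* list covered 5.57%, 36.2% of the *jhdm-1* peaks were shared, against 94.7% in the window from 18920744 to 19420743. The share of *jhdm-1* peaks on the right arm was the highest among the 8 arms, followed by 70.7% on the left arm of Chromosome III, the arm with the highest *wdr-5* cover. With the arm limits given above, the share of *wdr-5* peaks on the right arm was the lowest of the 8, at 36.7%. Next to it was 37.9% on the left arm of Chromosome III.

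By base pairs, the union of both lists covered 568 kb on the left arm and 1386 kb on the right arm. Of the union on the left arm, 15.3% was in both lists, 42.2% only in *wdr-5* peaks and 42.5% only in *jhdm-1* peaks. Of that on the right arm, 24.3% was in both, 57.9% only in *wdr-5* peaks and 17.8% only in *jhdm-1* peaks. The bases found only in *jhdm-1* peaks were nearly the same amount on both arms, 241 kb on the left arm and 247 kb on the right arm. Those found only in *wdr-5* peaks came to 240 kb on the left arm and 802 kb on the right arm.

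Peaks of the longest class met the other list most often on both arms. Among the *wdr-5* peaks on the left arm, 30.0% of those under 200 bp and 66.7% of those of 2 kb or more were shared. The longest class held 15 peaks there, and its interval ran from 41.7% to 84.8%. The same classes on the right arm gave 25.4% and 80.6%. Among the *jhdm-1* peaks of 2 kb or more, 24 of 29 on the left arm and 72 of 74 on the right arm were shared, which was 82.8% and 97.3%. The right arm of the *jhdm-1* experiment was above the left arm in each of its classes. Of the peaks from 500 to under 1000 bp, for example, 41.7% were shared on the left arm (33.2% to 50.6%) and 71.9% on the right arm (64.3% to 78.4%). A longer peak has more bases with which to meet another, and the part of this in the trend was not tested. The *wdr-5* list also covered 26.1% of the right arm and 5.53% of the left arm. Classes by length do not correct the comparison of the arms for this. No shares by length class are given here over all chromosomes, where all lengths together gave 41.0% for *wdr-5* and 55.4% for *jhdm-1* peaks. Whether the trend is particular to these arms was therefore not tested.

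**Figure D4:**
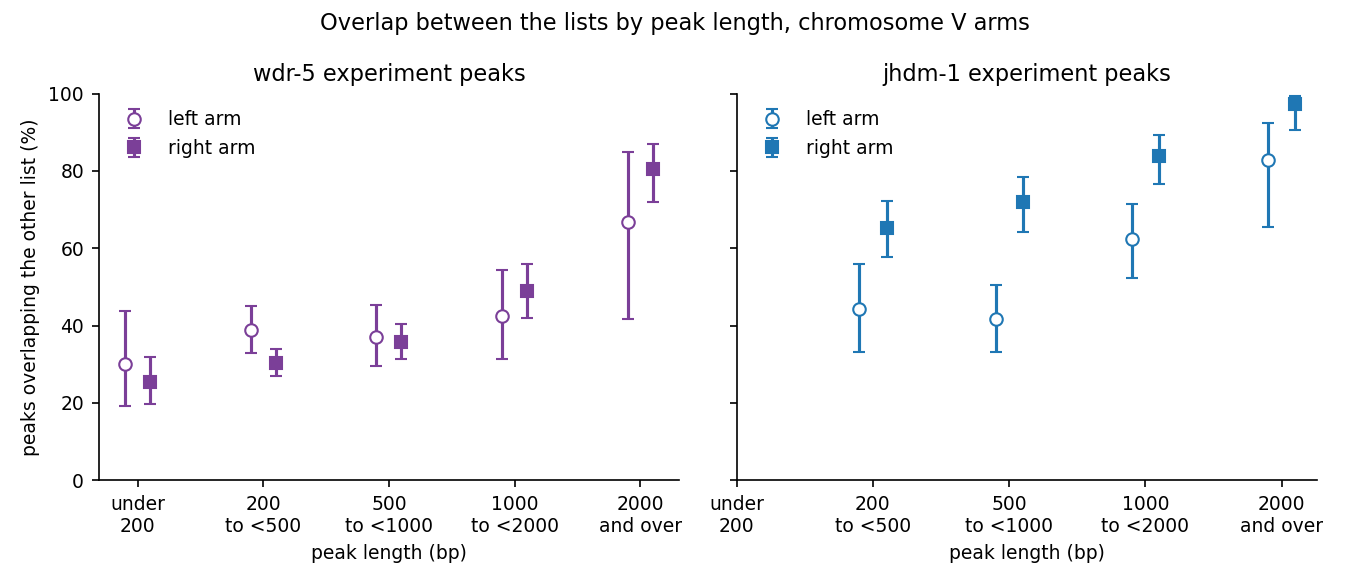
Percent of peaks that overlap the other list by at least 1 bp (y axis), by peak length (x axis), for *wdr-5* peaks (left) and *jhdm-1* peaks (right) on the left arm (open circles) and the right arm (filled squares); bars are 95% Wilson intervals, and the *jhdm-1* list has no peak under 200 bp. In the longest class 66.7% and 80.6% of the *wdr-5* peaks and 82.8% and 97.3% of the *jhdm-1* peaks were shared on the left and right arms.

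A single *jhdm-1* peak could meet several *wdr-5* peaks. On the left arm 28 *jhdm-1* peaks met 2 or more *wdr-5* peaks, with a maximum of 4, and on the right arm 117 did so, with a maximum of 9. The reverse was less common, with 1 *wdr-5* peak on the left arm and 20 on the right arm that met more than 1 *jhdm-1* peak.

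The remaining overlaps were pairs in which each peak met no other, 133 on the left arm and 243 on the right arm. Between such partners the arms differed in which list had the longer peak. Among left-arm pairs the *wdr-5* peak was the longer in 39.1%, with medians of 495 bp for the *wdr-5* peaks and 882 bp for the *jhdm-1* peaks. Among right-arm pairs it was the longer in 66.7%, with medians of 854 bp for the *wdr-5* peaks and 680 bp for the *jhdm-1* peaks. Such pairs leave out every peak that met several. Over all shared peaks the *wdr-5* median was the lower on both arms, at 452 bp against 1000 bp in the *jhdm-1* list on the left arm and 588 bp against 896 bp on the right arm. Within the pairs, the *jhdm-1* peak lay wholly inside its *wdr-5* partner in 30.8% of the pairs on the left arm and in 50.2% on the right arm. The reverse, a *wdr-5* peak inside its *jhdm-1* partner, made up 31.6% on the left arm and 11.9% on the right arm. The centres of partners were a median of 192 bp apart on the left arm and 190 bp on the right arm. Edges matched loosely, since no pair had both edges at the same base, and 4 pairs on each arm had both within 50 bp. An overlap of at least 50% of both peaks was reached by 37.6% of the pairs on the left arm and 40.3% on the right arm.

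**Figure D5:**
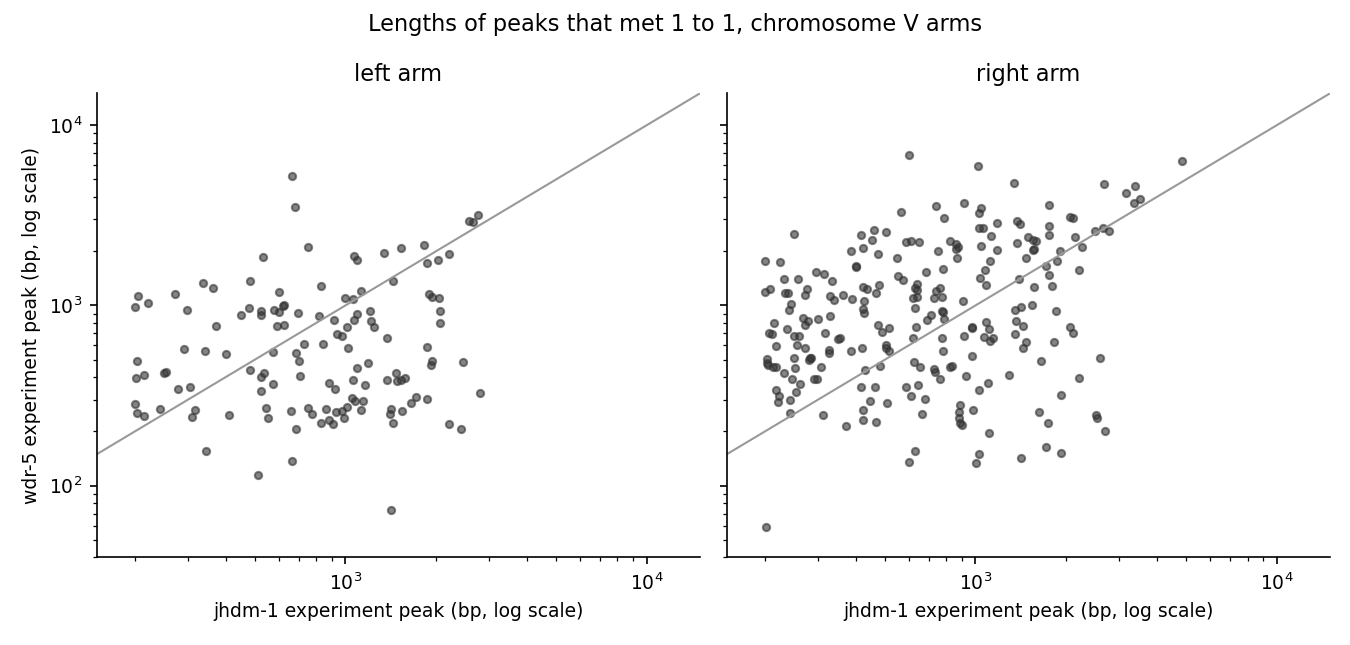
Length of the *wdr-5* peak (y axis) against that of the *jhdm-1* peak (x axis), both in bp on logarithmic axes, for the 133 pairs on the left arm and the 243 pairs on the right arm in which each peak met no other; the grey line marks equal length. The *wdr-5* peak is the longer, above the line, in 39.1% of the pairs on the left arm and 66.7% on the right arm.

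The longest peaks show these patterns at single places. In the *wdr-5* experiment the longest peak of the left arm was 5211 bp long, from 4577883 to 4583093, and 12.7% of it lay in a *jhdm-1* peak. The next longest were 4075 bp (1885668 to 1889742) and 3927 bp (3692483 to 3696409) long, and these lay 4675 bp and 7401 bp from the nearest *jhdm-1* peak. The 3 longest *wdr-5* peaks of the right arm were 12393 bp (19025203 to 19037595), 9876 bp (17982697 to 17992572) and 8121 bp (19911514 to 19919634) long. All of these met 2 or 3 *jhdm-1* peaks, which covered 10.2%, 15.2% and 18.4% of them. These 3 thus lay mostly outside *jhdm-1* peaks.

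The longest *jhdm-1* peaks of the left arm were 9649 bp (1831105 to 1840753), 7065 bp (764355 to 771419) and 5615 bp (3325124 to 3330738) long. They met 4, 4 and 2 *wdr-5* peaks, and between 15.3% and 21.1% of each lay in them. Those of the right arm were 8370 bp (17629096 to 17637465), 7662 bp (20299307 to 20306968) and 7414 bp (18653564 to 18660977) long. These met 8, 4 and 9 *wdr-5* peaks, which covered 46.5%, 90.5% and 43.9% of them, a larger part than on the left arm. The *wdr-5* list also covered more of the right arm as a whole, 26.1% against 5.53% of the left arm. The part of this in the difference was not tested.

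The longest stretch of the left arm called in both experiments was 2750 bp, where a *wdr-5* peak of 3178 bp from 1215078 to 1218255 contained a *jhdm-1* peak from 1215194 to 1217943. That of the right arm was 4843 bp, where a *wdr-5* peak of 6332 bp from 17758077 to 17764408 contained a *jhdm-1* peak from 17759420 to 17764262. Long peaks without any counterpart also occurred. The longest on the left arm were the *wdr-5* peak of 4075 bp named above and a *jhdm-1* peak of 3299 bp from 326078 to 329376, the second of them 1869 bp from the nearest *wdr-5* peak. Those on the right arm were a *wdr-5* peak of 5555 bp from 19881680 to 19887234 and a *jhdm-1* peak of 3273 bp from 19996678 to 19999950, which lay 1183 bp and 9362 bp from the nearest peak of the other list.

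Peaks without a counterpart lay closer to the other list on the right arm than on the left. The 314 unshared *wdr-5* peaks of the left arm were a median of 3936 bp from the nearest *jhdm-1* peak, and the 983 of the right arm a median of 2075 bp. For unshared *jhdm-1* peaks the median distance to a *wdr-5* peak was 3643 bp on the left arm, where they numbered 149, and 1007 bp on the right arm, where they numbered 123. Within 1 kb of the other list lay 17.4% of these *jhdm-1* peaks on the left arm and 49.6% on the right arm. More than 10 kb away lay 22.1% on the left arm and 8.94% on the right arm. The nearest possible neighbour is closer on the denser arm, and distances were not corrected for this.

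The arm limits cut through the lists at places of different density. At the left limit, the last *wdr-5* peak inside had its midpoint 74285 bp from the limit and was 388 bp long, and the first outside was 181 bp long. The last *jhdm-1* peak inside was 63636 bp from the limit and 938 bp long, and the first outside was 1135 bp long. At the right limit, the first *wdr-5* peak inside was 2444 bp from the limit and 1468 bp long, and the last outside was 1656 bp long. The first *jhdm-1* peak inside was 6003 bp from the limit and 722 bp long, and the last outside was 348 bp long.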

How the data were processed

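The deposited files hold, for each experiment, the chromosome, start and end of every H3K9me2 peak on WS220/ce10 in 3 columns, with no score, signal or count. Per the study's methods and the submitters' processing notes, the authors aligned reads with Bowtie2, called broad peaks per replicate with MACS2 2.1.1, kept a peak that 2 or more replicates of the same strain and generation had, and deposited the union. Depth is not given in the sources used here. Both lists were used whole, and positions are printed counted from 1. Arms were assigned by peak midpoint, and Chromosome V was taken to end with its last peak. Overlap, gaps, windows and 95% Wilson intervals were computed with Python 3.11.15, numpy 2.4.6, pandas 2.3.3 and scipy 1.17.1, checked with bedtools 2.31.1 and tested on simulated intervals. Peaks named are the 3 longest per list and arm, the longest overlap, the longest unshared peaks and those at the arm limits. No test was run, because no list has replicates. The members and comparisons were chosen with earlier results of these data known. Alternatives were a minimum length of 500 bp, joining peaks within 1 kb, chromosome parts of equal length as arms, means, other overlap rules and, chosen after seeing the data, other arm limits on Chromosomes II, III and IV.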

Additional observations from a re-analysis of the deposited data

How the results depend on the processing

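Over 25 results, 81 alternatives gave a value. In 53 the value stayed inside the Wilson interval (shares), within 1.5 times the first value or at the same rank, in 27 it moved further, and in 1 it reversed. Other limits for the arms of Chromosomes II, III and IV (0.5 Mb wider, 0.5 Mb narrower or equal parts) were added after the values were seen. Of 5 ranks of the Chromosome V arms among 8 arms, these moved only that of the left arm by *jhdm-1* cover. It was 2 from the lowest with equal parts on Chromosomes II, III and IV and Chromosome V unchanged. The lower density and cover of the left arm held under all alternatives tried for them in both lists. The left to right ratio of *wdr-5* peaks per Mb moved to 0.441 with peaks within 1 kb joined. With a minimum of 500 bp, by construction, the *wdr-5* list kept 221 peaks on the left arm and 706 on the right arm, and joining left 652 on the right arm. The *wdr-5* to *jhdm-1* ratio of median lengths was 0.887 on the left arm with a minimum of 500 bp, and on the right arm it reversed to 1.22 with peaks joined. The ratio of gaps on the right arm was 0.511 with peaks joined and 0.288 with means. By construction the shares followed the rule for overlap. The share of *wdr-5* peaks on the left and right arms was 29.4% and 25.2% with 50% of the peak overlapped, 10.1% and 8.43% with a reciprocal 50%, 49.9% and 55.7% within 1 kb, and 26.6% and 29.6% by base pairs. With a minimum of 500 bp it was 34.4% on the left arm. The share of *jhdm-1* peaks, in the same order, was 23.1% and 49.7%, 16.7% and 25.1%, 60.6% and 88.1%, and 26.5% and 57.8%, and with a minimum of 500 bp it was 29.8% and 61.6%. The *jhdm-1* share was higher on the right arm under each of these rules.

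No paired analysis was possible because the deposited lists are unions over replicates and groups, so leaving out a replicate was not run either. Depth is unknown, and the lists do not tell an absent peak from one below detection.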

Other observations

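Both arms held long stretches without a peak. In the *wdr-5* experiment the longest was 139955 bp on the left arm, from 511135 to 651089, and 85128 bp on the right arm, from 20702700 to 20787827. In the *jhdm-1* experiment it was 171363 bp on the left arm, from 4832829 to 5004191, and 50494 bp on the right arm, from 20159888 to 20210381. On the densely covered right arm, the longest stretch without a *wdr-5* peak thus lay within the outermost 500 kb, where the *wdr-5* list had 57 peaks and the *jhdm-1* list 47.

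Both lists had peaks near the left end of the chromosome, and the *wdr-5* list reached further towards the right end. The first peak on the left arm began at 3311 in the *wdr-5* experiment and at 5706 in the *jhdm-1* experiment. The last peak on the right arm was 140 bp long in the *wdr-5* experiment, from 20920604 to 20920743, and lay 27281 bp from the nearest *jhdm-1* peak. In the *jhdm-1* experiment the last peak ran from 20892511 to 20893322.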
